A study of Arabidopsis thaliana with 30 samples.

Results

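AT2G21640, NDB2 and CYTC-2 are nuclear genes of Arabidopsis that encode mitochondrial proteins, and they were followed through low oxygen and return to air in whole seedlings. The 3 genes were given by locus or symbol, with no threshold on signal, out of 13350 genes that had a named probe set on the array. They were chosen with earlier results of these data known. Each was read by 1 probe set, and each of those probe sets carried 1 gene name. AT2G21640 lies on chromosome 2, and NDB2 (AT4G05020) and CYTC-2 (AT4G10040) lie on chromosome 4. The gene table used here lists 1 transcript for AT2G21640, 1 for CYTC-2 and 2 for NDB2, and the array signal does not separate transcripts.

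The mitochondrial electron transport chain passes electrons from NADH and succinate through complex III to cytochrome c and on to complex IV, where oxygen is reduced. CYTC-2 encodes a cytochrome c, the small soluble carrier between complexes III and IV. Plants also have a bypass that pumps no protons, in which alternative NAD(P)H dehydrogenases feed electrons to ubiquinone and an alternative oxidase passes them to oxygen. NDB2 encodes one of the dehydrogenases on the outer face of the inner mitochondrial membrane. AT2G21640, also called UPOX for up-regulated by oxidative stress, encodes a mitochondrial protein whose transcript is widely used as a marker of oxidative stress and of mitochondrial dysfunction.

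All seedlings were 7 days old and carried 35S:His6FLAG-RPL18B in the Col-0 background, a single-copy transgene in which the constitutive 35S promoter drives a tagged ribosomal protein L18B, so every group, the air controls included, has the tag. The conditions were 2 h of hypoxia, 2 h in air, 9 h of hypoxia followed by 1 h of recovery in air, 9 h of hypoxia, and 9 h in air, and treatment began as the light period ended. Recovery seedlings were thus 1 h later than both 9 h groups, and no air control of that time was among the arrays. In comparisons of recovery with either 9 h group, the later time cannot be told apart from the treatment. From each condition polysomal RNA, pulled down through the tag, and total RNA were each measured in 3 independent replicate experiments, on 30 Affymetrix arrays in 10 groups of 3. In an extract of whole seedlings, fewer cells of a type and less RNA per cell cannot be told apart.

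Signals are log2 values, changes are log2 changes with the standard error (SE) of the model, and a gene rose or fell where its adjusted p from limma over all 22746 tested probe sets was under 0.05. Array means over all probe sets lay between 5.754 and 5.805 on the total RNA arrays. On the polysomal arrays the group means were 4.537 after 2 h of hypoxia, against 5.364 in 2 h air. They were 5.196 after recovery, 4.342 after 9 h of hypoxia and 5.358 in 9 h air. Polysomal signals are therefore given with each array's mean subtracted, and deposited values are set beside them where the call or direction differs. The sources do not say whether the lower polysomal means under hypoxia reflect less RNA on polysomes or a scaling step, and this was not tested. With the mean subtracted, a polysomal rise or fall is relative to the average probe set of the array. It is not a change in the amount of a transcript on polysomes. As deposited, the median polysomal change of all probe sets was −0.85 at 2 h, −0.97 at 9 h and 0.81 from 9 h hypoxia to recovery, against −0.02, 0.05 and −0.04 with the array mean subtracted. Of 8 genes known for strong induction by low oxygen, 8 rose in total RNA at 2 h (median change 5.44) and 8 at 9 h (median 5.66), and 7 of the 8 fell in the hour of recovery. Of all 22746 probe sets, 1866 rose at 2 h and 4849 at 9 h, and 2195 fell in the hour of recovery. The 8 genes were listed with earlier results of these data known, so their rise is not a separate check of the treatment. The root markers EXPA7, EXPA18 and PYK10 averaged 7.30 to 7.67 in total RNA after 2 h of hypoxia, against 8.54 to 8.63 in 2 h air, and 6.82 to 7.01 after 9 h of hypoxia, against 8.58 to 8.69 in 9 h air. The 2 shoot markers with a probe set, of 5 listed, averaged 11.7 to 11.8 after 9 h of hypoxia, against 13.0 to 13.1 in 9 h air.

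AT2G21640 was lowest in air at 2 h and highest after recovery in total RNA. Its signals were 6.10, 6.25 and 6.40 after 2 h of hypoxia, against 5.28, 5.61 and 5.37 in 2 h air. They were 7.31, 8.14 and 8.06 after 9 h of hypoxia, against 5.88, 6.74 and 6.51 in 9 h air, and 8.59, 8.60 and 8.98 after recovery. The hypoxic arrays lay above the air arrays at both times without overlap, and the recovery arrays lay above every other total RNA array. The ranking by group mean was recovery, 9 h hypoxia, 9 h air, 2 h hypoxia and 2 h air, and of the neighbours in this order only 9 h air and 2 h hypoxia overlapped.

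In total RNA AT2G21640 rose by 0.83 ± 0.20 at 2 h (limma, adjusted p = 0.00384; 20.7% of all probe sets passed in this comparison) and by 1.46 ± 0.20 at 9 h (adjusted p = 1.27e-06; 45.8% passed), which is 1.78-fold and 2.75-fold. The 9 h rise was not separable from the 2 h rise, with a difference of 0.63 ± 0.29 (limma adjusted p = 0.144; 18.2% passed). Without 9 h hypoxia replicate 1 of total RNA this difference was 0.89 (adjusted p = 0.0224). AT2G21640 rose a further 0.89 ± 0.20 between 9 h hypoxia and recovery (limma adjusted p = 0.00213; 22.2% passed). Recovery stood 2.35 ± 0.20, or 5.09-fold, above 9 h air (adjusted p = 6.06e-10; 38.8% passed). The 2 h call was lost without replicate 3 (0.73, adjusted p = 0.135), as was the call between recovery and 9 h hypoxia (0.87, adjusted p = 0.0576).

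The air controls were not at the same level. In total RNA AT2G21640 was higher in 9 h air than in 2 h air by 0.96 ± 0.20 (limma adjusted p = 0.00258), a comparison in which 7.06% of all probe sets passed. Without replicate 2 the value was 0.87 (adjusted p = 0.0643), and without replicate 3 it was 0.87 (adjusted p = 0.136). Under hypoxia the 9 h arrays exceeded the 2 h arrays by 1.59 ± 0.20 (limma adjusted p = 1.11e-06; 31.5% passed). The comparisons of hypoxia with air at the same time and of recovery with 9 h hypoxia share arrays with these, so their values are not independent.

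In polysomal RNA AT2G21640 had the same order of group means as in total RNA, and of the neighbours only recovery and 9 h hypoxia overlapped. With the array mean subtracted, its signals were 1.65, 1.47 and 1.37 after 2 h of hypoxia, against 0.87, 0.86 and 0.81 in 2 h air. They were 3.33, 3.89 and 3.51 after 9 h of hypoxia, against 1.95, 2.25 and 2.22 in 9 h air, and 4.00, 3.92 and 3.46 after recovery. Hypoxic and air arrays did not overlap at either time. It rose by 0.65 ± 0.20 at 2 h (limma adjusted p = 0.0139; 33.3% of probe sets passed) and by 1.44 ± 0.20 at 9 h (adjusted p = 1.28e-06; 47.9% passed). The change from 9 h hypoxia to recovery, 0.21 ± 0.20, did not pass (limma adjusted p = 0.459; 37% of probe sets passed). Recovery stood 1.65 ± 0.20 above 9 h air (adjusted p = 2.62e-07; 37% passed), and 9 h air stood 1.29 ± 0.20 above 2 h air (adjusted p = 6.99e-05; 8.26% passed).

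The deposited polysomal values gave AT2G21640 −0.18 at 2 h (adjusted p = 0.405; 90.9% of probe sets passed) and 0.42 at 9 h (adjusted p = 0.0519; 93.4% passed), neither of which passed in limma. Its deposited change from 9 h hypoxia to recovery was 1.07 (adjusted p = 2.99e-05; 90.2% passed). The 2 h call was also lost without replicate 2 (0.67, adjusted p = 0.0521), without replicate 3 (0.70, adjusted p = 0.0918) or without polysomal 2 h hypoxia replicate 1 (0.57, adjusted p = 0.065). The 9 h effect exceeded the 2 h effect by 0.79 ± 0.29 in polysomal RNA (limma adjusted p = 0.0518; 20.7% passed), and blocking on replicate number gave an adjusted p of 0.0244. It also passed without replicate 1 (0.88, adjusted p = 0.0206), without polysomal 2 h hypoxia replicate 1 (0.86, adjusted p = 0.0488) or without polysomal 9 h hypoxia replicate 1 (0.91, adjusted p = 0.0352). The 9 h value of polysomal hypoxia exceeded that at 2 h by 2.08 ± 0.20 (limma adjusted p = 1.44e-08; 33.5% passed).

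**Figure D1:**
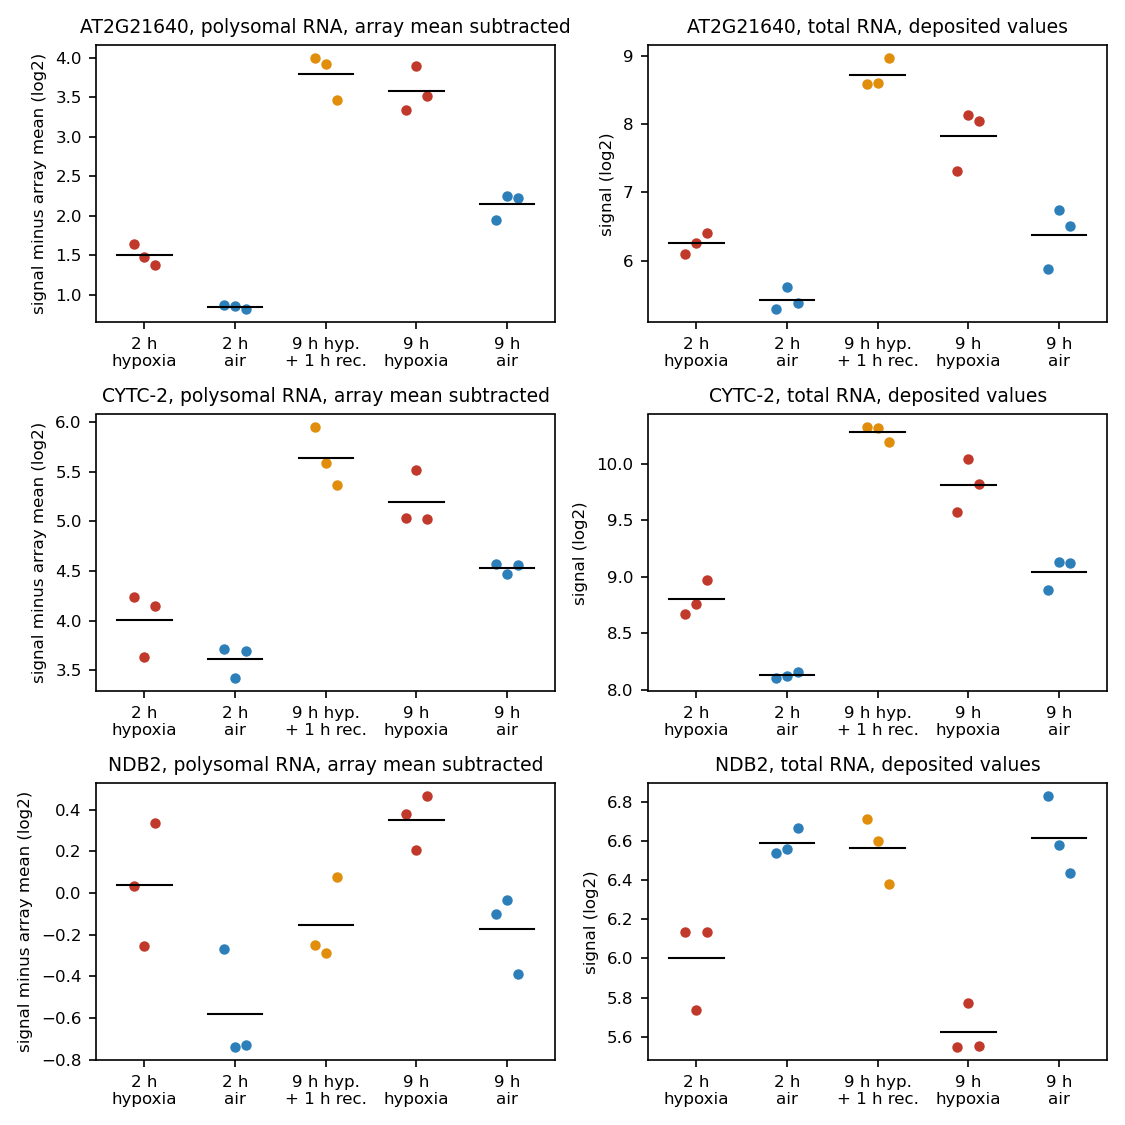
Signals of AT2G21640, CYTC-2 and NDB2 on each array (points, 3 replicates per group; lines are group means) in polysomal RNA (left, log2 signal minus array mean) and total RNA (right, deposited log2 signal). On these scales AT2G21640 and CYTC-2 are lowest in 2 h air and highest after recovery in both pools, whereas NDB2 in total RNA is lowest after 9 h of hypoxia and in polysomal RNA is lowest in 2 h air.

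CYTC-2 had the highest signal of the 3 probe sets, 9.38 averaged over the 30 arrays, although levels of different probe sets are not comparable as amounts. In total RNA its signals were 8.67, 8.76 and 8.97 after 2 h of hypoxia, against 8.10, 8.12 and 8.16 in 2 h air. They were 9.58, 10.04 and 9.83 after 9 h of hypoxia, against 8.88, 9.13 and 9.12 in 9 h air, and 10.33, 10.32 and 10.20 after recovery. The order of the group means was that of AT2G21640, and again only 9 h air and 2 h hypoxia overlapped as neighbours.

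CYTC-2 rose in total RNA by 0.67 ± 0.16 at 2 h (limma adjusted p = 0.00243) and by 0.77 ± 0.16 at 9 h (adjusted p = 0.000201), or 1.60-fold and 1.70-fold. The 9 h and 2 h rises differed by 0.10 ± 0.22 (limma adjusted p = 0.841; 95% confidence interval −0.36 to 0.55). Recovery stood 1.24 ± 0.16, or 2.36-fold, above 9 h air (limma adjusted p = 3.80e-07) and 0.47 ± 0.16 above 9 h hypoxia (adjusted p = 0.0328). In air it stood 0.92 ± 0.16 higher at 9 h than at 2 h (limma adjusted p = 0.000209), and under hypoxia 1.02 ± 0.16 higher (adjusted p = 1.40e-05). The 2 h call was lost without replicate 3 (0.61, adjusted p = 0.104). The call between recovery and 9 h hypoxia was lost in 6 of its leave-outs, among them replicate 1 (0.32, adjusted p = 0.243) and total 9 h hypoxia replicate 1 (0.35, adjusted p = 0.166).

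In polysomal RNA CYTC-2 was again lowest in 2 h air and highest after recovery with the array mean subtracted. Its signals with the array mean subtracted were 4.24, 3.63 and 4.15 after 2 h of hypoxia, against 3.72, 3.42 and 3.69 in 2 h air. They were 5.04, 5.52 and 5.03 after 9 h of hypoxia, against 4.57, 4.47 and 4.57 in 9 h air, and 5.95, 5.59 and 5.37 after recovery. Hypoxic and air arrays overlapped at 2 h, where 2 h hypoxia replicate 2 was low, and did not overlap at 9 h. The change was 0.40 ± 0.16 at 2 h (limma adjusted p = 0.0546) and a rise of 0.66 ± 0.16 at 9 h (adjusted p = 0.000977). Without that array the 2 h change was 0.58 (adjusted p = 0.00459), and without replicate 2 altogether it was 0.49 (adjusted p = 0.0332). CYTC-2 rose by 0.44 ± 0.16 from 9 h hypoxia to recovery (limma adjusted p = 0.0288), where the groups overlapped and the call was lost in 5 leave-outs with values of 0.20 to 0.49. The deposited change was 1.29 (adjusted p = 3.81e-08), in a comparison where 87.7% of all probe sets rose. Recovery stood 1.10 ± 0.16 above 9 h air in this pool (limma adjusted p = 2.64e-06). The 9 h arrays stood above the 2 h arrays by 1.19 ± 0.16 under hypoxia (adjusted p = 1.46e-06) and by 0.93 ± 0.16 in air (adjusted p = 0.000196), and the 9 h effect minus the 2 h effect was 0.26 ± 0.22 (adjusted p = 0.448). As deposited, its polysomal signal fell at 2 h (−0.43, adjusted p = 0.0124) and at 9 h (−0.36, adjusted p = 0.035), so the direction of its polysomal change depends on whether the array mean is subtracted.

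NDB2 went the other way in total RNA. Its signals were 6.14, 5.74 and 6.13 after 2 h of hypoxia, against 6.54, 6.56 and 6.67 in 2 h air. They were 5.55, 5.77 and 5.55 after 9 h of hypoxia, against 6.83, 6.58 and 6.44 in 9 h air, and 6.71, 6.60 and 6.38 after recovery. All hypoxic arrays lay below all air arrays, and 2 of the 3 recovery arrays lay within the range of the air arrays, with replicate 3, at 6.38, below the lowest air array, at 6.44. Ranked by group mean, 9 h air, 2 h air and recovery overlapped with one another as neighbours and stood above 2 h and 9 h hypoxia, which overlapped.

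NDB2 fell by 0.58 ± 0.15 at 2 h on the log2 scale (limma adjusted p = 0.00682) and by 0.99 ± 0.15 at 9 h (adjusted p = 6.05e-06), a 1.99-fold lower signal at 9 h. From 9 h hypoxia to recovery it rose by 0.94 ± 0.15 (limma adjusted p = 5.19e-05). Recovery then differed from 9 h air by −0.05 ± 0.15 (limma adjusted p = 0.838; 95% confidence interval −0.37 to 0.27). In air, 9 h and 2 h differed by 0.03 ± 0.15 (limma adjusted p = 0.968; 95% confidence interval −0.29 to 0.34), whereas AT2G21640 and CYTC-2 both rose in that comparison. The 2 h call was lost without total 2 h hypoxia replicate 2 (−0.45, adjusted p = 0.0548) and without replicate 2 altogether (−0.47, adjusted p = 0.0981). From 2 h to 9 h of hypoxia its change was −0.38 ± 0.15 (adjusted p = 0.0623), but without total 2 h hypoxia replicate 2 it was −0.51 (adjusted p = 0.0232) and without replicate 2 altogether −0.59 (adjusted p = 0.0314). The 9 h effect minus the 2 h effect was −0.41 ± 0.22 (limma adjusted p = 0.226).

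In polysomal RNA the NDB2 signal was low, with deposited values of 4.30 to 5.33 over the 15 arrays, and its changes ran opposite to those in total RNA once array means were subtracted. These signals were 0.03, −0.25 and 0.34 after 2 h of hypoxia, against −0.27, −0.74 and −0.73 in 2 h air. They were 0.38, 0.21 and 0.47 after 9 h of hypoxia, against −0.10, −0.03 and −0.39 in 9 h air, and −0.25, −0.29 and 0.08 after recovery. Hypoxic and air arrays did not overlap at either time, but at 2 h the gap between −0.25 and −0.27 was small. NDB2 rose by 0.62 ± 0.16 at 2 h (limma adjusted p = 0.00255) and by 0.53 ± 0.16 at 9 h (adjusted p = 0.0065), and it fell by 0.51 ± 0.16 from 9 h hypoxia to recovery (adjusted p = 0.0114). Recovery differed from 9 h air by 0.02 ± 0.16 (limma adjusted p = 0.945; 95% confidence interval −0.30 to 0.34), and the 9 h effect from the 2 h effect by −0.09 ± 0.22 (adjusted p = 0.814).

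These polysomal calls were each lost in 1 or more leave-outs. Without replicate 3 the NDB2 change was 0.40 at 2 h (adjusted p = 0.125) and 0.36 at 9 h (adjusted p = 0.113), and without polysomal 9 h air replicate 3 the 9 h change was 0.42 (adjusted p = 0.0506). The change on recovery was −0.44 without replicate 1 (adjusted p = 0.109) and −0.44 without polysomal recovery replicate 2 (adjusted p = 0.0573). Deposited values of NDB2 changed by −0.21 at 2 h (limma adjusted p = 0.199), −0.49 at 9 h (adjusted p = 0.00429) and 0.35 from 9 h hypoxia to recovery (adjusted p = 0.036), the reverse direction in each case. With array means subtracted, the 9 h arrays differed from the 2 h arrays by 0.31 ± 0.16 under hypoxia (adjusted p = 0.127) and 0.41 ± 0.16 in air (adjusted p = 0.126). Without polysomal 2 h hypoxia replicate 3 the first was 0.46 (adjusted p = 0.0358), and without polysomal 2 h air replicate 1 the second was 0.56 (adjusted p = 0.0354).

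**Figure D2:**
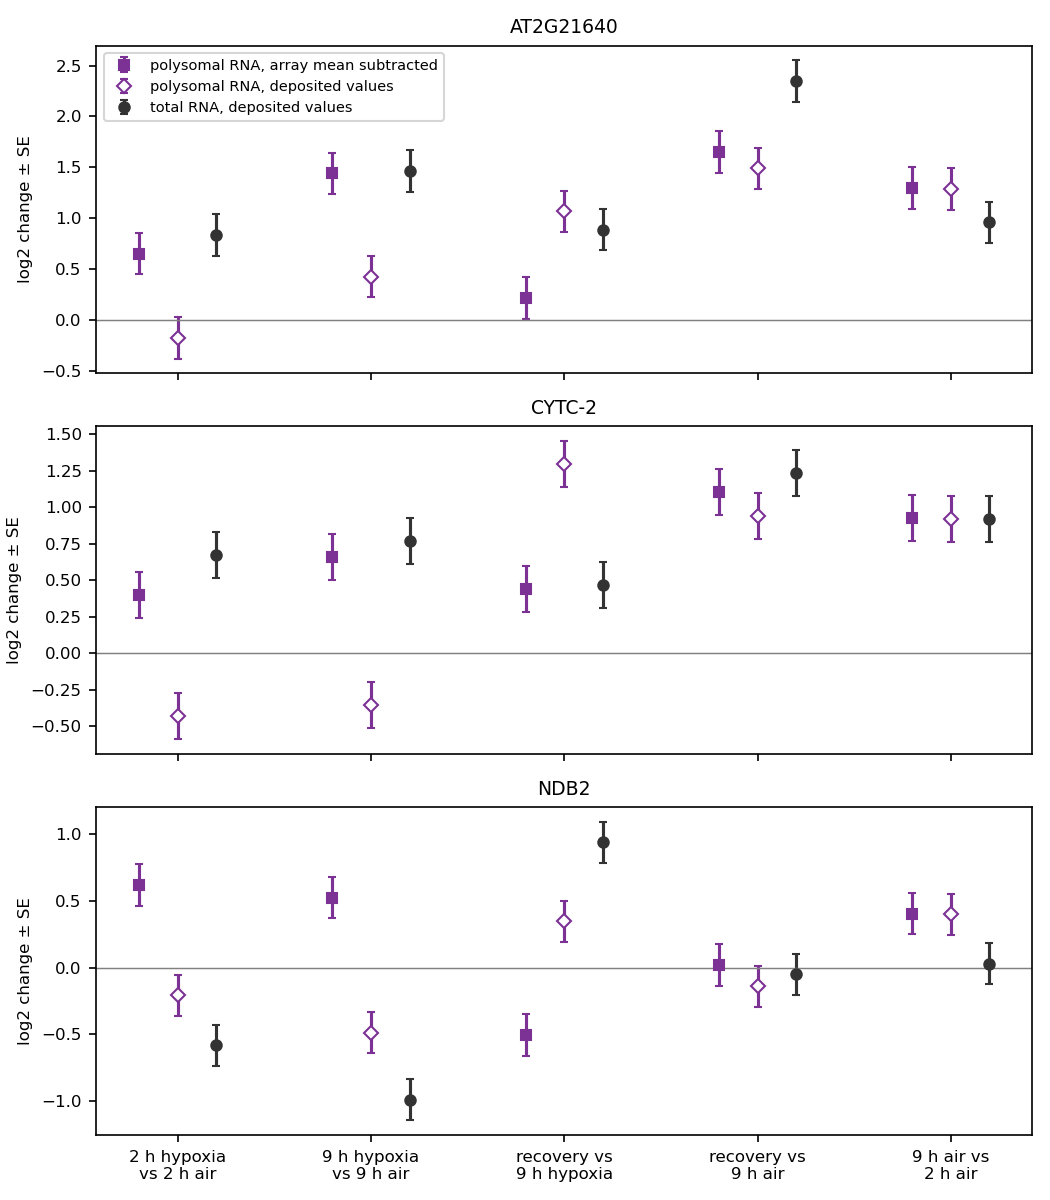
Log2 changes of AT2G21640, CYTC-2 and NDB2 (y axis, with SE bars of the model, 3 arrays per group) in 5 comparisons (x axis), for polysomal RNA with array means subtracted (filled purple squares), polysomal RNA as deposited (open diamonds) and total RNA (black circles). Total RNA of NDB2 falls at 2 h and 9 h and rises on recovery against 9 h hypoxia, while AT2G21640 and CYTC-2 rise in all 3. The filled and open purple symbols lie on opposite sides of 0 for NDB2 in every comparison but 9 h against 2 h air. They also do so for CYTC-2 at 2 h and 9 h and for AT2G21640 at 2 h.

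The polysomal change minus the total change, called the association change here, compares how a transcript moved in the 2 pools and was computed with array means subtracted from all arrays. NDB2 was the 1 gene of the 3 whose association changes passed. At 2 h its change was 0.62 in polysomal RNA and −0.57 in total RNA, an association change of 1.19 ± 0.22 (limma adjusted p = 0.000533; 15% of probe sets passed). At 9 h the changes were 0.53 in polysomal RNA and −0.98 in total RNA, an association change of 1.50 ± 0.22 (adjusted p = 1.63e-05; 24.2% passed). From 9 h hypoxia to recovery they were −0.51 in polysomal RNA and 0.93 in total RNA, an association change of −1.43 ± 0.22 (adjusted p = 2.90e-05; 22% passed). The 9 h and recovery comparisons share the 9 h hypoxia arrays, so these 2 values are not independent.

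All 3 association calls of NDB2 held in each of 15 leave-outs, with values of 1.01 to 1.44 at 2 h, 1.37 to 1.74 at 9 h and −1.55 to −1.25 on recovery. After quantile normalization of all arrays they were 1.20, 1.53 and −1.39. With deposited values they were 0.38 (adjusted p = 0.11), 0.50 (adjusted p = 0.0344) and −0.59 (adjusted p = 0.0154; 82% of probe sets passed), so the direction held and the 2 h value did not pass. Among probe sets of similar brightness (class 6 of 10 by mean signal), the association change at 2 h had a median of 0.07, with 10% and 90% points of −0.57 and 0.65. At 9 h that median was 0.04 with points of −0.72 and 0.76, and on recovery it was −0.06 with points of −0.70 and 0.70. NDB2 lay outside these points each time.

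AT2G21640 and CYTC-2 had no association change that passed. At 2 h the values were −0.19 ± 0.29 for AT2G21640 (limma adjusted p = 0.765; 95% confidence interval −0.78 to 0.40) and −0.29 ± 0.22 for CYTC-2 (adjusted p = 0.479; −0.75 to 0.17). At 9 h they were −0.04 ± 0.29 for AT2G21640 (adjusted p = 0.952; −0.63 to 0.55) and −0.12 ± 0.22 for CYTC-2 (adjusted p = 0.762; −0.58 to 0.33). From 9 h hypoxia to recovery AT2G21640 had −0.66 ± 0.29 (adjusted p = 0.109) and CYTC-2 had −0.01 ± 0.22 (adjusted p = 0.981). With deposited values both passed as negative at 2 h (−1.01 for AT2G21640 and −1.11 for CYTC-2) and at 9 h (−1.04 and −1.12), where 83.1% and 87.8% of all probe sets passed.

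The pools also differed in air. With array means subtracted, AT2G21640 was higher in polysomal than in total RNA by 1.22 ± 0.20 in 2 h air (limma adjusted p = 2.32e-05; 39.8% passed) and by 1.54 ± 0.20 in 9 h air (adjusted p = 9.40e-07; 38% passed). CYTC-2 was higher in polysomal RNA by 1.27 ± 0.16 and 1.26 ± 0.16 (adjusted p = 3.67e-07 and 4.12e-07). NDB2 was lower in polysomal RNA, by −1.38 ± 0.16 in 2 h air (adjusted p = 9.17e-08) and by −1.02 ± 0.16 in 9 h air (adjusted p = 7.86e-06). Within 2 h air and within 9 h air, no polysomal array overlapped a total RNA array for any of the 3 genes. The share of all probe sets without such overlap was not computed.

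Differences between 2 genes on the same array are unchanged when a constant is subtracted from the whole array, but quantile normalization can change them. These differences were compared between conditions with a two-sided exact permutation test, whose smallest possible p with 3 arrays against 3 is 0.1. In total RNA the NDB2 signal minus the CYTC-2 signal changed by −1.26 at 2 h, −1.76 at 9 h and 0.47 from 9 h hypoxia to recovery, without overlap (exact p = 0.1 each). In polysomal RNA the same difference changed by 0.22 at 2 h (exact p = 0.3), −0.13 at 9 h (exact p = 0.7) and −0.95 on recovery (exact p = 0.2). Of 70 such comparisons, 42 had no overlap, and adjusted over the 70 the p for a comparison without overlap was 0.167. The 70, which include those with related genes below, reuse the same arrays and genes and are not separate results. The share without overlap among other gene pairs was not computed.

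**Figure D3:**
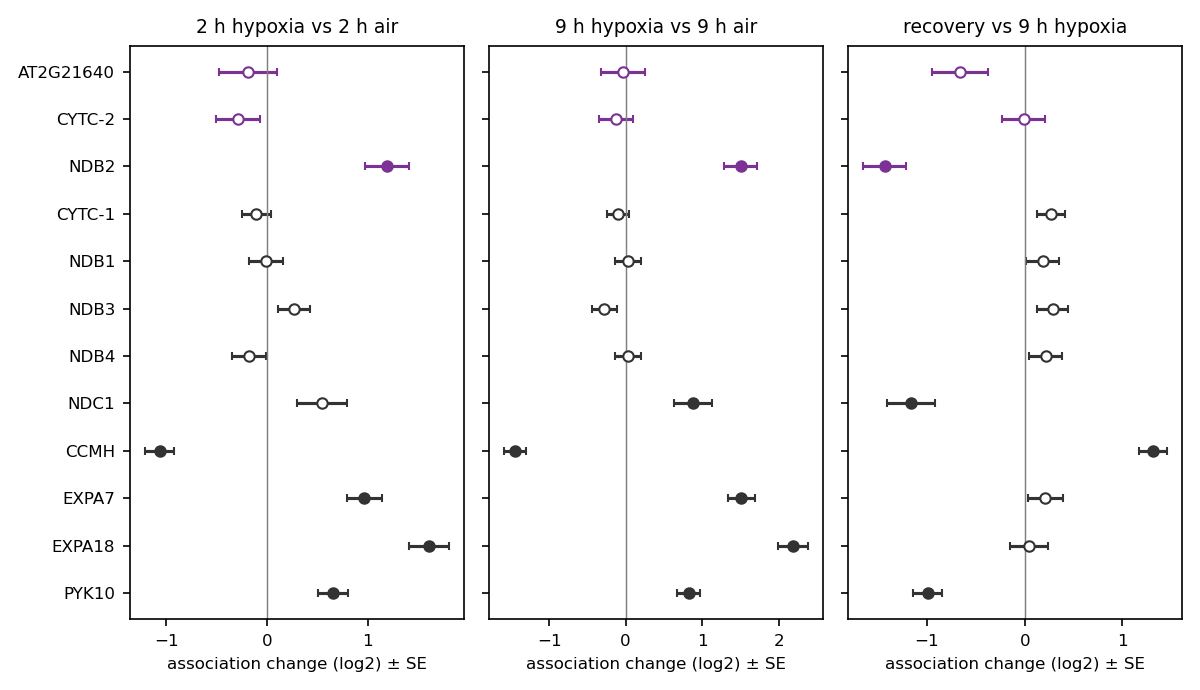
Association changes (x axis, polysomal log2 change minus total log2 change, array means subtracted, with SE bars) of AT2G21640, CYTC-2 and NDB2 (purple), of related respiratory genes and of 3 root markers (black) in 3 comparisons; filled points passed at an adjusted p under 0.05. NDB2 is at 1.19, 1.50 and −1.43, while AT2G21640, CYTC-2 and the relatives NDB1, NDB3, NDB4 and CYTC-1 have open points in all 3 panels. The relative NDC1 has filled points at 9 h and on recovery, in the same directions as NDB2.

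The root markers moved with NDB2 under hypoxia. In total RNA 3 of 3 fell at both times, with changes in EXPA18, EXPA7 and PYK10 of −2.09, −1.01 and −0.38 at 2 h and of −2.67, −1.45 and −1.04 at 9 h. Of all 22746 probe sets, 2843 fell at 2 h and 5563 at 9 h. The 3 markers had association changes of 1.61, 0.97 and 0.66 at 2 h and of 2.18, 1.51 and 0.82 at 9 h, all of which passed. The association change passed as positive for 1679 of all probe sets at 2 h and for 2616 at 9 h. On recovery NDB2 total RNA rose while 0 of the 3 root markers rose and 1 fell. Of all probe sets, 2852 rose and 2195 fell there. The root marker mean in total RNA was 6.61 to 6.70 after recovery, against 6.82 to 7.01 after 9 h of hypoxia. The 2 measured shoot markers were also lower in total RNA under hypoxia. They averaged 11.66 to 11.81 after 2 h of hypoxia, against 11.88 to 12.07 in 2 h air. After 9 h of hypoxia they averaged 11.72 to 11.82, against 13.01 to 13.07 in 9 h air, and after recovery 12.03 to 12.09. The shoot marker range in 9 h air thus lay above that in 2 h air, while the ranges after 2 h and 9 h of hypoxia overlapped. Whether the share of root or shoot RNA took part in the fall of NDB2 was not tested.

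NDB1, NDB3 and NDB4 encode other external NAD(P)H dehydrogenases and NDC1 a dehydrogenase found in mitochondria and plastids. Of the 13 genes listed for the alternative pathway and uncoupling, besides NDB2, these 4 had a named probe set, and the alternative oxidase genes were not analysed here. In total RNA limma called 0 of the 4 in either direction at 2 h, at 9 h, from 9 h hypoxia to recovery, and between recovery and 9 h air, and the numbers at an unadjusted p under 0.05 were 1, 1, 0 and 0. Of all probe sets, 20.7%, 45.8%, 22.2% and 38.8% passed in these comparisons. Their changes at 9 h ran from 0.09 to 0.27 (median 0.14, against 0.03 over all probe sets).

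Single arrays gave the NDB2 signal minus that of each relative. Against NDB1, NDB3 and NDB4 it changed by −0.77, −0.45 and −0.76 at 2 h and by −1.08, −1.16 and −1.26 at 9 h in total RNA. From 9 h hypoxia to recovery it changed by 1.09, 1.12 and 1.09. None of these 9 comparisons had overlap (exact p = 0.1 each, two-sided permutation test). In polysomal RNA NDC1 rose at 2 h (0.97) and 9 h (1.00) and fell on recovery (−1.48), with association changes of 0.88 at 9 h and −1.17 on recovery that passed. As deposited, 3 of the 4 relatives were lower in polysomal RNA and 0 higher, both at 2 h and at 9 h, and 3 rose and 1 fell on recovery, beside 88.1% and 88.8% of all probe sets lower and 87.7% higher on recovery.

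CYTC-1, the other cytochrome c gene, changed in total RNA by 0.00 at 2 h and fell by 0.44 at 9 h, where CYTC-2 rose. The CYTC-2 signal minus the CYTC-1 signal changed in total RNA by 0.67 at 2 h, 1.21 at 9 h, 0.40 from 9 h hypoxia to recovery and 1.61 between recovery and 9 h air, and by 0.82 between 9 h and 2 h air. None of the 5 had overlap (exact p = 0.1 each, two-sided permutation test). In polysomal RNA the same differences were 0.49 (exact p = 0.2), 1.19 (0.1), 0.12 (0.6), 1.30 (0.1) and 0.87 (0.1).

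The rest of the cytochrome pathway (subunits of complexes III and IV, cytochrome c and their assembly factors, 12 measured of 17 listed, without CYTC-2) had few changes in total RNA at 2 h, with 1 higher and 0 lower. At 9 h 4 were higher and 4 lower with a median of 0.13, while 21.3% of all probe sets were higher and 24.5% lower. The largest at 9 h were AT5G61310, a complex IV subunit, at −0.97, and the assembly genes AT1G02410 at 0.78 and CCMH at 0.74, with the complex IV subunit AT5G57815 at 0.70. In polysomal RNA 0 rose and 6 fell at 2 h, and 2 rose and 8 fell at 9 h (medians −0.28 and −0.44, against −0.02 and 0.05 over all probe sets). Of all probe sets, 15.7% rose and 17.6% fell at 2 h, and 22.6% rose and 25.3% fell at 9 h. On recovery 7 rose and 1 fell (median 0.39), while 18.9% of all probe sets rose and 18.1% fell. As deposited, 12 of 12 fell at 2 h, 12 of 12 fell at 9 h and 12 of 12 rose on recovery, where 88.1% and 88.8% of all probe sets fell and 87.7% rose. The association change passed as negative for 6 of 12 at 2 h and for 7 at 9 h, and as positive for 6 on recovery, while 7.62% and 12.7% of all probe sets passed as negative and 11.2% as positive. The polysomal changes of CYTC-2, 0.40 at 2 h and 0.66 at 9 h, lay above these medians.

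Of complexes I and II and the ATP synthase, 6 of 15 listed genes were measured. In total RNA SDH1-1, the flavoprotein subunit of complex II, was lower at 2 h (−0.65) and 9 h (−0.59), and SDH2-2, an iron-sulphur subunit, was lower at 9 h (−0.96). AT4G02580, a complex I subunit, was higher at 9 h (0.39). Like NDB2, SDH1-1 had association changes that passed, at 0.78 at 2 h, 0.89 at 9 h and −0.88 on recovery.

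Of 14 other listed transcripts known to respond to mitochondrial dysfunction, 5 had a named probe set. In total RNA 3 rose and 0 fell at 2 h (median 0.94), and 3 rose and 1 fell at 9 h (median 1.27). Of all probe sets, 8.20% rose and 12.5% fell at 2 h, and 21.3% rose and 24.5% fell at 9 h. AT2G41730, of unknown function, rose by 2.87 and 4.21, and AT5G51440, a mitochondrial small heat shock protein, by 2.61 and 4.69. AT5G09570, a small mitochondrial protein with twin cysteine motifs, changed by 0.33 at 2 h, which did not pass, and rose by 1.27 at 9 h. AT2G04050, a transporter of the MATE family, rose at 2 h (0.94) and fell at 9 h (−0.83), and in air it was 2.36 higher at 9 h than at 2 h.

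After recovery 3 of these 5 stood above and 1 below 9 h air in total RNA (median 1.65), as did 18.2% of all probe sets above and 20.6% below. From 9 h hypoxia to recovery limma called 0 of the 5 higher and 1, AT2G41730, lower (−0.84), with 3 at an unadjusted p under 0.05. Of all 22746 probe sets, 2852 rose and 2195 fell in this comparison, and AT2G21640 was among those that rose. Of 7 oxidative stress markers, 3 were measured, and 2 of them rose in total RNA at 2 h (AT1G05340 by 1.08 and AT1G19020 by 2.09) and at 9 h (by 2.16 and 3.11). AT1G05340 rose again by 0.70 from 9 h hypoxia to recovery. In polysomal RNA at 9 h 3 of 3 measured oxidative stress markers were higher, as were 4 of the 5 mitochondrial stress genes, where 22.6% of all probe sets were higher. On the deposited scale 2 of 3 and 3 of 5 were higher, against 4.53% of all probe sets. GSTU25, a glutathione transferase, rose by 1.81 with array means subtracted, while its total RNA changed by 0.03, which did not pass.

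**Figure D4:**
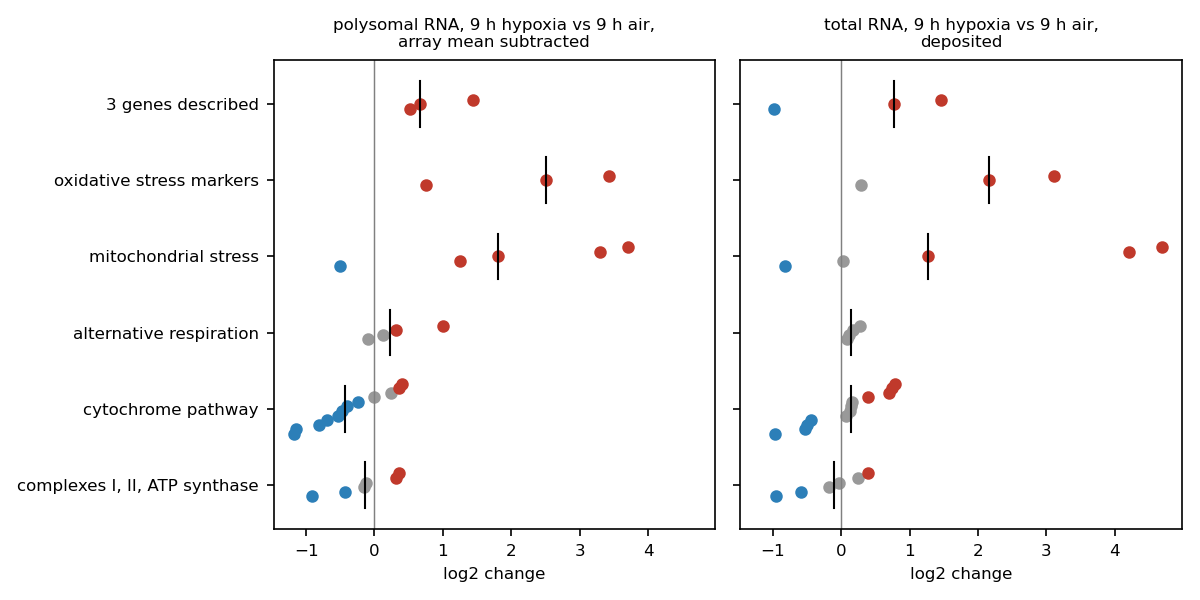
Log2 changes between 9 h hypoxia and 9 h air (x axis) of the measured genes of each list (rows), in polysomal RNA with array means subtracted (left) and in total RNA (right); red points were higher, blue points lower and grey points did not pass, and black bars are medians. In total RNA NDB2 is the blue point of the top row at −0.99, and no gene of the alternative respiration row passed, where 45.8% of all probe sets passed.

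AT2G21640 and CYTC-2 tracked each other across the 10 groups, with a Pearson r of 0.978 over the 10 group means (0.990 over the 5 total RNA groups and 0.990 over the 5 polysomal groups). NDB2 had an r of −0.21 with AT2G21640 and −0.34 with CYTC-2 over the 10 groups, and of 0.63 and 0.54 over the 5 polysomal groups. These are descriptions, and the groups share the scaling of the arrays and the difference between pools. Among all named genes the profiles most like that of AT2G21640 were AT5G19875 (r = 0.987), AT5G09570 (0.986), AT3G56290 (0.984), CYTC-2 (0.978) and AT1G05340 (0.975). For CYTC-2 they were AT4G38930 (0.985), AT5G09570 (0.979), AT2G21640 (0.978), AT3G56290 (0.978) and AT3G11110 (0.971). AT5G09570 and AT3G56290 were thus on both lists, and both were lowest in total RNA of 2 h air, as were AT2G21640 and CYTC-2. The shared lowest group follows largely from picking genes by correlation over the same group means.

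The profiles most like that of NDB2 were NTMC2T6.1 (r = 0.940 over 10 groups), AT4G14240 (0.938), AT4G35870 (0.936), AT2G22660 (0.934) and iqd32 (0.923). Their likeness was lower than that of the genes most like the other two, and over the 5 polysomal groups alone r was 0.81 to 0.93. Of the 5, 4 were lowest in polysomal RNA of 2 h air, which is also the lowest group of NDB2. Genes picked for a like profile tend to share its lowest group, so this is not a separate observation.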

How the data were processed

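Signals of 30 Affymetrix arrays were analysed as deposited. The deposited log2 values came from RMA (submitters' processing notes). Its version, the genome build and the set of arrays it was run on are not stated in the sources used here. The probe table gave 1 gene to 13513 of 22810 probe sets, several to 503 and none to 8730 of the 22746 tested after 64 controls were left out. A gene with several probe sets was read from the brightest. The number of arrays limits the precision.

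limma 3.58.1 (R 4.3.3) fitted 1 mean per group on all 30 arrays with 20 residual degrees of freedom, and p values were adjusted by Benjamini-Hochberg over 22746 probe sets in each comparison (threshold 0.05). Total RNA was fitted on deposited log2 values, and every comparison with polysomal arrays after subtraction of each array's mean. The code was tested on simulated data. The genes and lists were chosen with earlier results of these data known. From each list, genes that passed were named, up to the 4 with the largest change in a comparison, and the 5 genes most like each gene were named by Pearson correlation over group means. Relatives that did not pass were named after their values were seen. Differences within an array and 10 classes by mean signal were also chosen after seeing the data. No sequences were analysed here. Alternatives were deposited values, array medians, quantile normalization, leaving out the dimmest 40% of probe sets, a fit on the compared groups alone, the replicate number as a block and leaving out arrays.

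The labels do not say that a replicate number marks a shared day. Deviations of same-numbered arrays from their group means correlated at over 0.1 for every replicate in 14 of 17 pairs of groups, among them all 5 pairs of polysomal with total RNA (0.133 to 0.589). The 3 exceptions were total RNA at 9 h (0.031 to 0.280), polysomal RNA at 2 h (0.016 to 0.176) and polysomal recovery with 9 h air (−0.061 to 0.172).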

Additional observations from a re-analysis of the deposited data

Results flagged for a closer look

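The response of NDB2 differed between polysomal and total RNA by a test of the difference itself (limma, adjusted over all probe sets). With array means subtracted, its polysomal change exceeded its total change by 1.19 at 2 h of hypoxia and by 1.50 at 9 h of hypoxia. From 9 h of hypoxia to recovery the difference was −1.43. No such difference passed for AT2G21640 or CYTC-2 with array means subtracted.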

How the results depend on the processing

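Of 342 values of the 3 genes recomputed under other settings, 312 kept direction and side of the threshold. Leaving out the dimmest probe sets, fitting the compared groups alone and blocking on replicate number left each log2 change as it was. Direction could therefore not change in those settings. Of the values that did change direction or side, most came with deposited values of polysomal arrays, which keep the array means. For AT2G21640 they gave −0.18 at 2 h, 0.42 at 9 h and 1.07 on recovery against 9 h hypoxia in polysomal RNA, and association changes of −1.01, −1.04 and 0.18. For CYTC-2 they gave −0.43 and −0.36 at 2 h and 9 h, and association changes of −1.11, −1.12 and 0.83. For NDB2 they gave −0.21, −0.49 and 0.35, −0.14 on recovery against 9 h air, and an association change of 0.38 at 2 h.

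Subtracting array medians, which moved the median change of all probe sets in total RNA at 9 h to 0.19 from 0.03, gave CYTC-2 0.36 in total and 0.38 in polysomal RNA on recovery against 9 h hypoxia (adjusted p = 0.0859 and 0.0545), 0.43 in polysomal RNA at 2 h (0.0361) and an association change of 0.0269 on recovery. It gave NDB2 7.3e-06 in total RNA on recovery against 9 h air, and AT2G21640 0.86 for the polysomal 9 h effect minus the 2 h effect (0.0331). Probe sets called in total RNA at 9 h were then 8994 higher and 4385 lower, against 4849 and 5563 as deposited, and on recovery against 9 h hypoxia 2176 and 4516, against 2852 and 2195. Quantile normalization gave NDB2 0.44 in polysomal RNA for 9 h against 2 h of hypoxia (0.0379) and 0.0315 for the effect difference. Without the dimmest 40% of probe sets the values were the same as reported, but NDB2 passed for 9 h against 2 h of hypoxia in total RNA (−0.38, 0.049), as did CYTC-2 in polysomal RNA at 2 h (0.40, 0.0401) and AT2G21640 for the polysomal effect difference (0.79, 0.0357). With only the groups compared, CYTC-2 lost polysomal recovery against 9 h hypoxia (0.44, 0.108) and AT2G21640 gained the effect difference (0.79, 0.0152). The replicate number as a block, a pairing the labels do not give, changed 1 call of the 3 genes: the same difference of AT2G21640 (0.79, adjusted p = 0.0244). The causes were not tested.

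Leaving out arrays gave ranges that crossed the threshold or 0. For AT2G21640 in total RNA they were 0.73 to 0.93 at 2 h, 0.62 to 1.10 on recovery against 9 h hypoxia, 0.77 to 1.21 for 9 h against 2 h air and 0.38 to 0.89 for the effect difference. In polysomal RNA they were 0.57 to 0.71 at 2 h, −0.0121 to 0.38 on recovery, 0.63 to 0.91 for the effect difference and −0.30 to 0.21 for the association change at 9 h. For CYTC-2 in total RNA they were 0.59 to 0.74 at 2 h, 0.32 to 0.58 on recovery and −0.0186 to 0.22 for the effect difference. In polysomal RNA they were 0.28 to 0.58, 0.20 to 0.63 and −0.0195 to 0.42, and −0.17 to 0.15 for the association change on recovery. For NDB2 in total RNA they were −0.68 to −0.45 at 2 h, −0.59 to −0.27 for 9 h against 2 h of hypoxia, −0.14 to 0.0552 on recovery against 9 h air and −0.10 to 0.16 for 9 h against 2 h air. In polysomal RNA they were 0.40 to 0.78 at 2 h, 0.36 to 0.67 at 9 h, 0.17 to 0.46 for 9 h against 2 h of hypoxia, −0.62 to −0.44 on recovery against 9 h hypoxia, −0.20 to 0.16 against 9 h air, 0.255 to 0.56 for 9 h against 2 h air and −0.25 to 0.0552 for the effect difference.

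Without replicate 3, the probe sets called fell to 1913, against 4709 with all arrays, in total RNA at 2 h, and to 991, against 3412, for the association change at 2 h. With 3 arrays per group and dim polysomal signal of NDB2, changes near the threshold could not be settled, and no detection calls were used.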
